A study of Mus musculus and Acomys cahirinus with 25 samples.

Results

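The FGF ligands and receptors described here are 10 of the 24500 genes counted in each library, taken by their symbols. They comprise 7 ligands (Fgf2, Fgf7, Fgf9, Fgf10, Fgf18, Fgf20 and Fgf22) and 3 receptors (Fgfr1, Fgfr2 and Fgfr3), and all 10 had a row in every file. Levels are given as CPM, counts per 1000000 reads on all genes of the library.

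Dorsal skin wounds were divided into epidermis and dermis, and their mRNA was sequenced in 25 libraries to compare wound areas and species that differ in forming new hair follicles. The laboratory mouse (Mm) contributed 13 libraries, all from post-wound day (PWD) 14. The epidermis was wild type (WT), with 2 libraries of the wound center and 2 of the wound margin. The dermis comprised 5 libraries of WT wound center, 2 of WT wound margin and 2 of wound center labelled KO. The study worked with 4-week-old C57BL/6J mice, with K14-Cre-Twist1 mice as the KO and Twist1+/+ mice as their controls, and used both sexes. In the KO, the keratinocyte promoter of K14 drives Cre, so that Twist1 is deleted in the epidermis and not in the dermis that was sequenced. The center was a round punch from the middle of the wound and the margin was the rest. The African spiny mouse (Ac, Acomys cahirinus, WT, 2 months old) contributed 12 libraries of whole wounds or shaved skin. Those of epidermis numbered 1, 2, 2 and 1 at PWD0, PWD14, PWD21 and PWD28, and those of dermis 2, 1, 2 and 1. These days are those of the labels, and the study's own sample list gives slightly different days for the wounded spiny mouse libraries. The labels do not say which libraries came from the same or from separate animals, so the p-values measure the spread between these libraries, which may be partly technical. In bulk tissue of this kind, a lower level through fewer cells of a type and through less RNA per cell cannot be told apart.

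Fibroblast growth factors are secreted proteins that bind heparan sulfate and activate receptor tyrosine kinases on neighbouring cells. Fgf7 and Fgf10 are made by mesenchymal cells and act on the epithelial splice form of Fgfr2, while other ligands signal through the forms of Fgfr1 and Fgfr3. In skin the family is known for keratinocyte growth, closure of wounds and the exchange of signals between dermis and epidermis during hair follicle formation. Counts per gene do not separate the epithelial from the mesenchymal splice forms of a receptor.

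On the GRCm38 build, the ligand genes lie at chr3:37348477-37410106 (Fgf2, plus strand), chr2:126034658-126091185 (Fgf7, plus), chr14:58070671-58112854 (Fgf9, plus), chr13:118714699-118792573 (Fgf10, plus), chr11:33116970-33147400 (Fgf18, minus), chr8:40279166-40286953 (Fgf20, minus) and chr10:79755051-79757795 (Fgf22, plus). The receptor genes lie at chr8:25518759-25575718 (Fgfr1, plus), chr7:130162451-130266808 (Fgfr2, minus) and chr5:33721724-33737068 (Fgfr3, plus). The spiny mouse libraries were not strand-specific, and 9.63% of the exon length of Fgf2 is shared with Nudt6 and 13.3% of that of Fgfr3 with G630022F23Rik, both on the opposite strand. Spiny mouse reads on those stretches cannot be assigned to a gene.

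The 5 promoters printed here belong to 2 ligands that were higher in dermis (Fgf7 and Fgf10), a ligand and a receptor that were higher in epidermis (Fgf22 and Fgfr3) and the ligand that fell after wounding (Fgf18). They are RefSeq sequences of GRCm38.p6, 5′ to 3′ on the strand of the gene, and cover the bases upstream of the gene start: chr10:79754859-79755050 (plus strand) for Fgf22, chr5:33721474-33721723 (plus) for Fgfr3, chr2:126034408-126034657 (plus) for Fgf7, chr13:118714449-118714698 (plus) for Fgf10 and chr11:33147401-33147650 (minus) for Fgf18. Capitals mark E-boxes, the 6 bases CANNTG that read the same on both strands and that basic helix-loop-helix factors such as Twist1 are known to bind.
Fgf22: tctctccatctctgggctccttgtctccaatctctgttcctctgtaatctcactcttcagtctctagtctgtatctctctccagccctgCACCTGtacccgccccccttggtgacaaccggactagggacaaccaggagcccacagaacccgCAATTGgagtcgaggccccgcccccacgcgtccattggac
Fgfr3: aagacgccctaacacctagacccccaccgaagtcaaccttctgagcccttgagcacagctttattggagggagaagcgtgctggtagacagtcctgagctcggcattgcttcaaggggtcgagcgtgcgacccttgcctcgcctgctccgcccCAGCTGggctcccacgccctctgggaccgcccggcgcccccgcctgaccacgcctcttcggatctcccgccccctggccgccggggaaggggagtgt
Fgf7: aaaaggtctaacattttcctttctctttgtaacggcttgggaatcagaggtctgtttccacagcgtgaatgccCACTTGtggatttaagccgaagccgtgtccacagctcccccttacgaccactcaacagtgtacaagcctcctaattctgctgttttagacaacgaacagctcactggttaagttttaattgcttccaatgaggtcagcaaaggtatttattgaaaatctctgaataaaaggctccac
Fgf10: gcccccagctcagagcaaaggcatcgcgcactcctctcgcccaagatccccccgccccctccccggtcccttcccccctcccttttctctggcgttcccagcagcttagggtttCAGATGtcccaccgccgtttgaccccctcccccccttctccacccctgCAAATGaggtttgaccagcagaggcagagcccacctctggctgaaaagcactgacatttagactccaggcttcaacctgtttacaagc
Fgf18: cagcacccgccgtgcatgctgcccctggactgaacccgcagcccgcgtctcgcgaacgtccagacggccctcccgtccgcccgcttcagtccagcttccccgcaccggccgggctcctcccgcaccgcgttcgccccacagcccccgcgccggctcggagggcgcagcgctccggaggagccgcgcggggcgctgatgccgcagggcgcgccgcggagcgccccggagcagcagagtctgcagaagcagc
In the window of 250 bases taken for each promoter, Fgf22 held 4 E-boxes, of which 2 lie in the 192 bases printed. Fgf10 held 2, Fgfr3 and Fgf7 held 1 each and Fgf18 held 0. Of 32851 mouse promoters of the same length, 66.2% held at least 1 E-box and 3.84% held 4 or more. The Fgf18 window was 77.2% G or C and the Fgf7 window 43.6%, against a median of 52.4%. The table held promoters for 8 of the 10 members and not for Fgf20 and Fgfr1.

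The laboratory mouse libraries held between 19413261 and 86532134 reads on genes, and the spiny mouse libraries between 5669760 and 34751956. The smallest amount taken as detectable, 3 reads, corresponded to between 0.0347 and 0.155 CPM in the laboratory mouse and between 0.0863 and 0.529 CPM in the spiny mouse, which covers counting error only. Spiny mouse reads had been aligned to the laboratory mouse genome, and 24.4% to 52.9% of the reads in the count files fell on genes, against 57.7% to 69.8% in the laboratory mouse, so levels were compared within a species. Replicates of the laboratory mouse dermis and margin epidermis were uneven: between 3.305% and 18.45% of the genes with 20 or more reads in one library had 0 reads in the other, against at most 0.617% in spiny mouse pairs and in the center epidermis pair. An exact 0 in those libraries is therefore given as a listed value only, and 3 reads set no upper limit there. Keratinocyte markers were the higher list in every epidermis library and fibroblast markers in every dermis library. The 14 keratinocyte markers summed to between 42726 and 217099 CPM in epidermis, and the 15 fibroblast markers to between 77774 and 199370 CPM in dermis. Fold changes were computed by edgeR after TMM scaling, with the FDR as the adjusted p of its quasi-likelihood test over all genes tested. Relative to scaling by library size alone, TMM moved the median log2 fold change of all genes between the layers from -0.73 to 0.05 in the laboratory mouse center, from -0.98 to -0.16 in the margin and from -0.18 to -0.06 in the spiny mouse at PWD21. Log2 fold changes therefore differ from ratios of the CPM printed beside them.

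Between the layers, Fgf7, Fgf10 and Fgfr1 were higher in dermis, and Fgf22 and Fgfr3 were higher in epidermis, in each comparison that tested them (1 in each species for Fgf7 and Fgf10). Fgf7 and Fgf10 passed the filter on low counts through dermis alone, and Fgf22 in the laboratory mouse center through epidermis alone. Their direction in those comparisons was thus fixed once they were tested. At PWD21 in the spiny mouse, 7 of the 8 members tested differed between the layers, 2 higher and 5 lower in epidermis, against 62.9% of all genes (29.4% higher and 33.5% lower). Of the 5, Fgf2, Fgf7, Fgf10 and Fgf18 had at most 7 reads in either epidermis library and passed the filter through dermis alone. The count therefore partly reflects the filter. The laboratory mouse members past the threshold were 3 of 5 tested in the wound center (2 higher and 1 lower in epidermis), against 56.1% of all genes (29.3% higher and 26.8% lower). In the margin they were 6 of 8 (3 higher and 3 lower), against 47.7% of all genes (20.9% higher and 26.8% lower). Over all libraries of a species, 3 members did not overlap between the layers in the laboratory mouse, 1 higher in epidermis and 2 in dermis, and 4 did not in the spiny mouse, 1 higher in epidermis and 3 in dermis. Among genes whose mean reached 1 CPM, the shares were 36.5% in the laboratory mouse (9.54% higher in epidermis and 27.0% in dermis) and 22.5% in the spiny mouse (7.85% and 14.7%). The layers of the laboratory mouse were also sequenced differently, epidermis with paired-end and dermis with single-end reads, and layer and read type cannot be told apart there.

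Fgf7, the keratinocyte growth factor of mesenchymal cells, was listed in laboratory mouse dermis at 0.181, 2.27, 8.35, 50.04 and 2.62 CPM in the 5 WT center libraries, at 8.44 and 12.1 in the margin and at 11.5 and 10.8 in the KO. Each of the 4 epidermis libraries held 0 to 4 reads, at most 0.0462 CPM. In spiny mouse dermis the levels were 24.9 and 55.7 CPM at PWD0, 15.95 at PWD14, 34.7 and 21.2 at PWD21 and 56.7 on PWD28, and no epidermis library held more than 3 reads. The layers did not overlap in either species, while the laboratory mouse center libraries spread more widely than all the others. In the margin, Fgf7 was lower in epidermis by a log2 fold change of -7.38 ± 1.20 (SE, 2 against 2 libraries, edgeR FDR 0.000551), a value that rests on 4 reads in epidermis. At PWD21 in the spiny mouse it was at least 163-fold lower in epidermis, as the mean of dermis over 3 reads in the shallower epidermis library (edgeR FDR 1.38e-05).

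Fgf10, the other mesenchymal ligand of the epithelial Fgfr2 form and a signal of early hair follicles, was listed in laboratory mouse dermis at 0, 3.66, 1.29, 12.04 and 1.78 CPM in the WT center, at 7.06 and 3.92 in the margin and at 1.41 and 0 in the KO. Of the 4 epidermis libraries, 3 held 0 reads and margin replicate 2 held 19, which is 0.220 CPM. Spiny mouse dermis held 2.47 and 1.91 CPM at PWD0, 0.471 at PWD14, 6.93 and 3.68 at PWD21 and 8.88 on PWD28, and no epidermis library had more than 2 reads. The layers were thus apart in the spiny mouse and overlapped at 0 in the laboratory mouse. In the laboratory mouse margin the log2 fold change was -4.37 ± 1.08 in epidermis (edgeR FDR 0.00653). Without dermis margin replicate 1 it was -3.80 (FDR 0.0902), and the call was also lost with the quasi-likelihood test of edgeR 3 (FDR 0.0685) and in a fit of all laboratory mouse libraries (FDR 0.0626). In the spiny mouse at PWD21, Fgf10 was at least 31.0-fold lower in epidermis (edgeR FDR 9.8e-05).

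Fgf22, a ligand of the same subfamily that is known from epithelial cells of the skin, ran the other way. Laboratory mouse epidermis held 6.66 and 5.70 CPM in the center and 0.567 and 7.82 in the margin, whereas all 5 WT center and both KO dermis libraries were at 0 and the dermis margin at 0.689 and 0.451. In spiny mouse epidermis the level was 33.9 CPM on PWD0, 33.95 and 42.4 on PWD14, 49.7 and 51.4 on PWD21 and 47.3 on PWD28. Spiny mouse dermis held 1.59 and 3.67 CPM at PWD0, 1.47 at PWD14, 1.37 and 2.13 at PWD21 and 18.0 on PWD28. The layers were apart in every spiny mouse library, and margin epidermis replicate 1 was the only laboratory mouse epidermis library within the range of dermis. At PWD21 in the spiny mouse, Fgf22 was higher in epidermis by 4.94 ± 0.30 on the log2 scale (edgeR FDR 1.29e-05). In the laboratory mouse center both dermis libraries compared were listed at 0, so that no fold is given. Fgf22 passed the filter on low counts there through epidermis alone, which fixed its direction. The call (edgeR FDR 0.00369) is therefore no separate support. In the margin the log2 fold change was 3.77 ± 1.23 (edgeR FDR 0.0273), but 0.80 without epidermis margin replicate 2 (FDR 0.711), 4.19 without dermis margin replicate 1 (FDR 0.0615) and 3.46 without dermis margin replicate 2 (FDR 0.0969). That call was also lost with library size alone, with the edgeR 3 test and in the fit of all laboratory mouse libraries (FDR 0.0896, 0.0901 and 0.0525).

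Fgf18, a ligand that is known in skin from the resting hair follicle, is described with the days after wounding. At PWD21 it stood at 10.4 and 6.62 CPM in spiny mouse dermis and at 0.207 and 0.171 in epidermis, a log2 fold change of -5.28 ± 0.48 in epidermis (edgeR FDR 7.22e-05). All 13 laboratory mouse libraries were below 5 CPM, and epidermis lay within the range of dermis, which ran from 0 to 4.75 CPM.

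**Figure D1:**
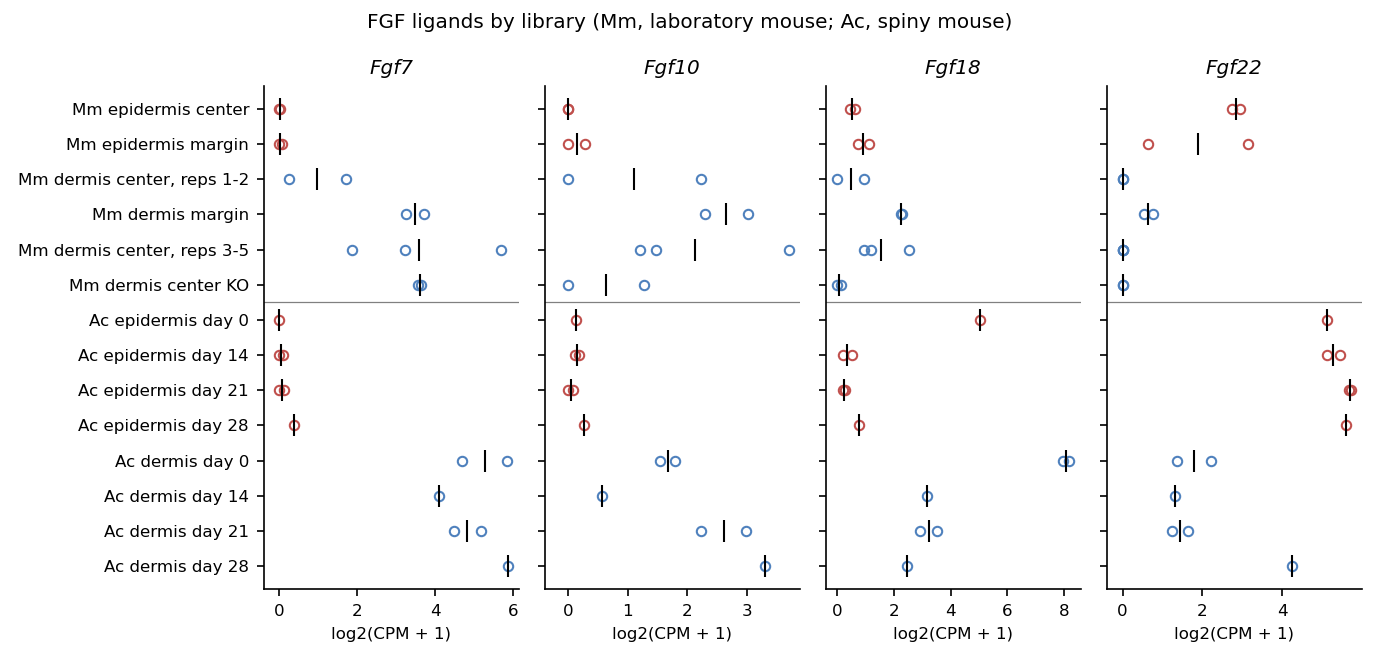
Levels of Fgf7, Fgf10, Fgf18 and Fgf22 in each library as log2(CPM + 1), by group, with epidermis in red, dermis in blue and the group mean of the plotted values as a black bar. Fgf7 and Fgf10 are near 0 in all epidermis groups, Fgf22 is highest in spiny mouse epidermis, and Fgf18 is highest at day 0 of both spiny mouse layers.

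The remaining 3 ligands were low, and each had 3 reads or fewer in part of the libraries. Fgf2, a broadly acting growth factor, had at most 5 reads in any epidermis library of either species. In spiny mouse dermis it ran from 0.294 to 0.978 CPM, and in laboratory mouse dermis it was at 0 in 5 of 9 libraries and reached 3.625 CPM. At PWD21 it was at least 5.12-fold lower in spiny mouse epidermis (edgeR FDR 0.00264), from 0.775 and 0.978 CPM in dermis. Fgf9, which is known from γδ T cells and wound fibroblasts of regenerating wounds, reached 1.94 CPM in spiny mouse dermis, 1.03 in spiny mouse epidermis, 3.19 in laboratory mouse dermis and 0.127 in laboratory mouse epidermis. Fgf20, a ligand of the early hair placode, had 0 reads in all 13 laboratory mouse libraries and at most 14 in any spiny mouse library, which is 0.513 CPM or less.

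Fgfr1, the main receptor of mesenchymal cells, was listed in laboratory mouse dermis at 315, 314.5, 442, 464.5 and 371 CPM in the WT center, at 228 and 216 in the margin and at 391 and 150.2 in the KO. Epidermis held 20.3 and 17.6 CPM in the center and 13.3 and 5.004 in the margin. Spiny mouse dermis held 134 and 192.5 CPM at PWD0, 408 at PWD14, 407 and 561 at PWD21 and 345 on PWD28, and epidermis held 54.0, then 5.04 and 3.83, then 8.81 and 8.05, and 57.9 on the same days. No epidermis library reached the lowest dermis library of its species. Fgfr1 was lower in epidermis by -3.27 ± 0.16 on the log2 scale in the laboratory mouse center (edgeR FDR 0.000185), by -3.78 ± 0.49 in the margin (FDR 0.000146) and by -5.72 ± 0.29 in the spiny mouse at PWD21 (FDR 7.02e-06).

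Fgfr3, a receptor that is known from the suprabasal epidermis and cartilage, held 98.6 and 82.6 CPM in laboratory mouse center epidermis and 56.6 and 94.2 in margin epidermis. The WT center dermis held 2.54, 0, 1.33, 3.58 and 1.78 CPM, the margin 11.4 and 12.75, and the KO 5.835 and 34.0. In the spiny mouse, epidermis held 182.5 CPM on PWD0, 33.7 and 29.4 on PWD14, 65.7 and 59.15 on PWD21 and 152 on PWD28, against 25.05 and 30.3, 1.41, 4.515 and 8.03, and 37.3 in dermis. The layers were apart in the laboratory mouse and on each day of the spiny mouse, though not across its days. Fgfr3 was higher in epidermis by 3.42 ± 0.33 on the log2 scale in the spiny mouse at PWD21 (edgeR FDR 9.63e-05) and by 3.47 ± 0.38 in the laboratory mouse margin (FDR 5.2e-05). In the laboratory mouse center the log2 fold change was 6.87 ± 1.08 (FDR 0.00462), and between 5.94 and 15.2 when single libraries were left out. The last value, without dermis center replicate 1, sets epidermis against the 0 of replicate 2 and depends on the prior count of the fit.

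Fgfr2, the receptor of Fgf7, Fgf10 and Fgf22 in its epithelial form, was abundant in both layers. The laboratory mouse held 98.4 and 85.1 CPM in center epidermis and 165.5 and 119.4 in margin epidermis, against 24.65, 88.75, 76.8, 20.6 and 42.75 in WT center dermis, 62.5 and 120.3 in margin dermis and 54.6 and 38.5 in the KO. Spiny mouse epidermis held 292 CPM (PWD0), 47.0 and 59.3 (PWD14), 136 and 149 (PWD21) and 363 (PWD28), and dermis 65.1 and 114.5, 44.3, 119 and 172, and 161 on those days. The layers overlapped in both species. At PWD21 the spiny mouse layers differed by 0.08 ± 0.24 on the log2 scale (edgeR FDR 0.776), and the sign turned with library size alone (-0.03), with at least 10 counts in every library (-0.05) and without dermis PWD21 replicate 1 (-0.22). The laboratory mouse margin gave a log2 fold change of 1.503 ± 0.375 (FDR 0.0079), but 0.64 with library size alone (FDR 0.175), 1.16 without dermis margin replicate 1 (FDR 0.126) and 1.46 in the fit of all laboratory mouse libraries (FDR 0.0713). In the center it was 1.502 ± 0.56 (FDR 0.0704), and 0.89 without dermis center replicate 1 (FDR 2.1e-05) and 2.68 without replicate 2 (FDR 4.08e-10), fits in which the lone dermis library is assumed to vary like the others. DESeq2, the likelihood ratio test and all 5 center libraries also put the center difference past the threshold (FDR 0.0142, 0.0286 and 0.0218). With library size alone the margin split of members past the threshold was 1 higher and 4 lower in epidermis, against 3 and 3.

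**Figure D2:**
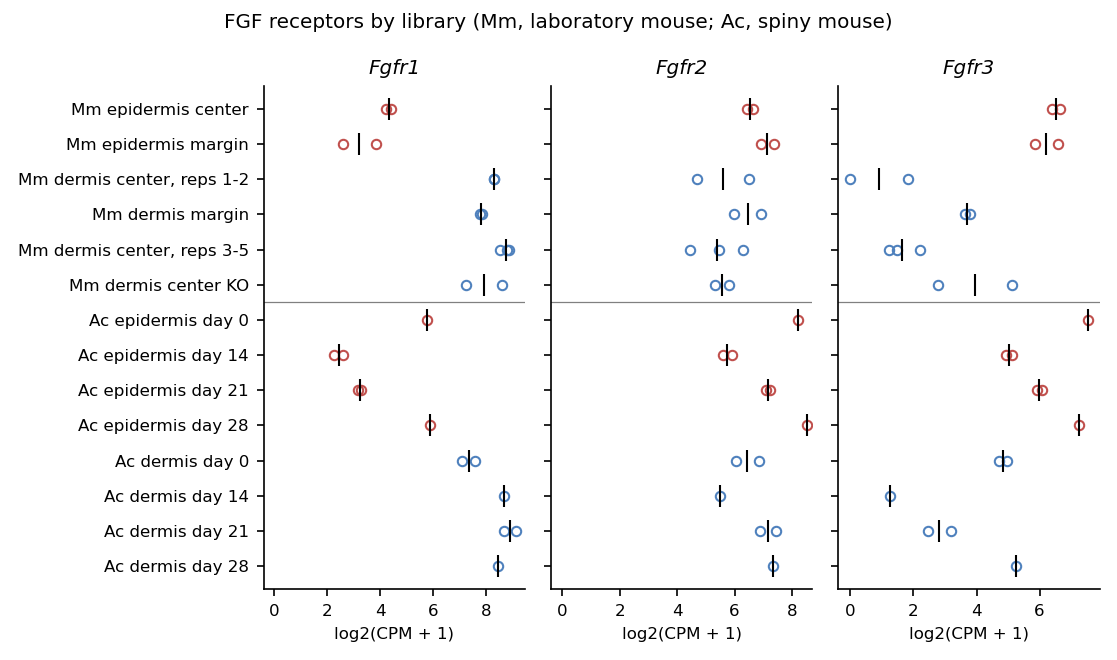
Levels of Fgfr1, Fgfr2 and Fgfr3 in each library as log2(CPM + 1), by group, with epidermis in red, dermis in blue and the group mean of the plotted values as a black bar. Fgfr1 is higher in every dermis group than in any epidermis group of the species, and Fgfr2 overlaps between the layers.

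**Figure D3:**
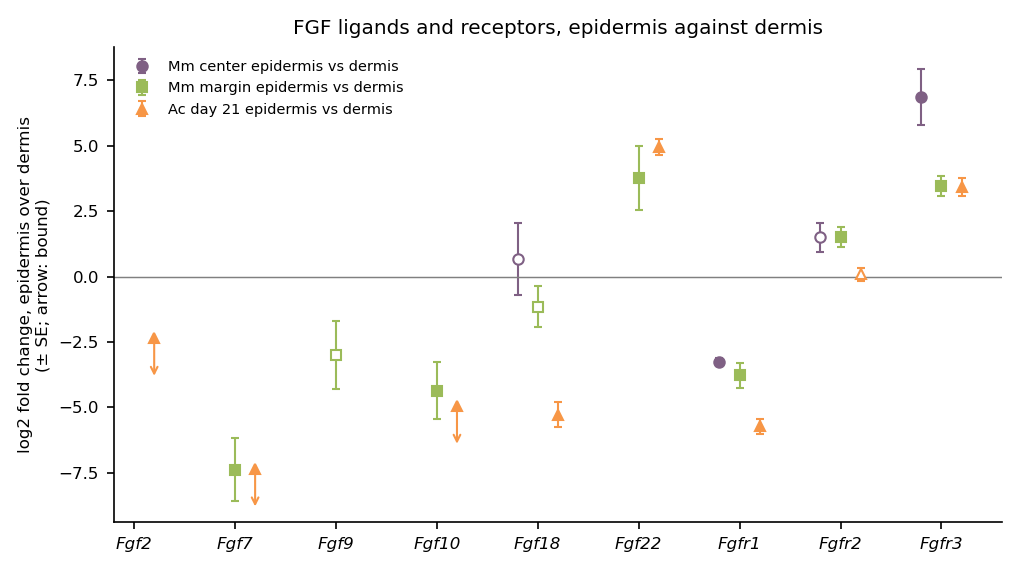
Log2 fold changes of epidermis over dermis with their SE from edgeR, in the laboratory mouse center (circles) and margin (squares) and the spiny mouse at PWD21 (triangles), each 2 against 2 libraries, for the members that passed the filter on low counts. Filled symbols passed an FDR of 0.05, and triangles with an arrow are bounds against 3 reads where spiny mouse epidermis had no more than 3 reads in each library. Fgf22 in the laboratory mouse center, with dermis listed at 0, is not drawn.

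Set against gene length, the receptors made up different shares in each layer. Exon lengths were those of the laboratory mouse in both species, and how evenly spiny mouse reads of the 3 genes aligned was not tested. Per kilobase of exon, Fgfr1 made up 61.8% to 94.9% of the summed level of the 3 receptors in laboratory mouse dermis and 55.9% to 90.1% in spiny mouse dermis, but 2.02% to 8.30% and 3.46% to 9.41% in epidermis. Fgfr2 made up 38.1% to 63.9% in laboratory mouse epidermis and 47.2% to 62.0% in spiny mouse epidermis. Fgfr3 made up 30.8% to 53.8% and 33.6% to 47.6% there, and at most 19.8% and 14.8% in dermis. Fgfr2 and Fgfr3 thus shared epidermis between them, while Fgfr1 alone exceeded the other receptors together in all 15 dermis libraries.

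**Figure D4:**
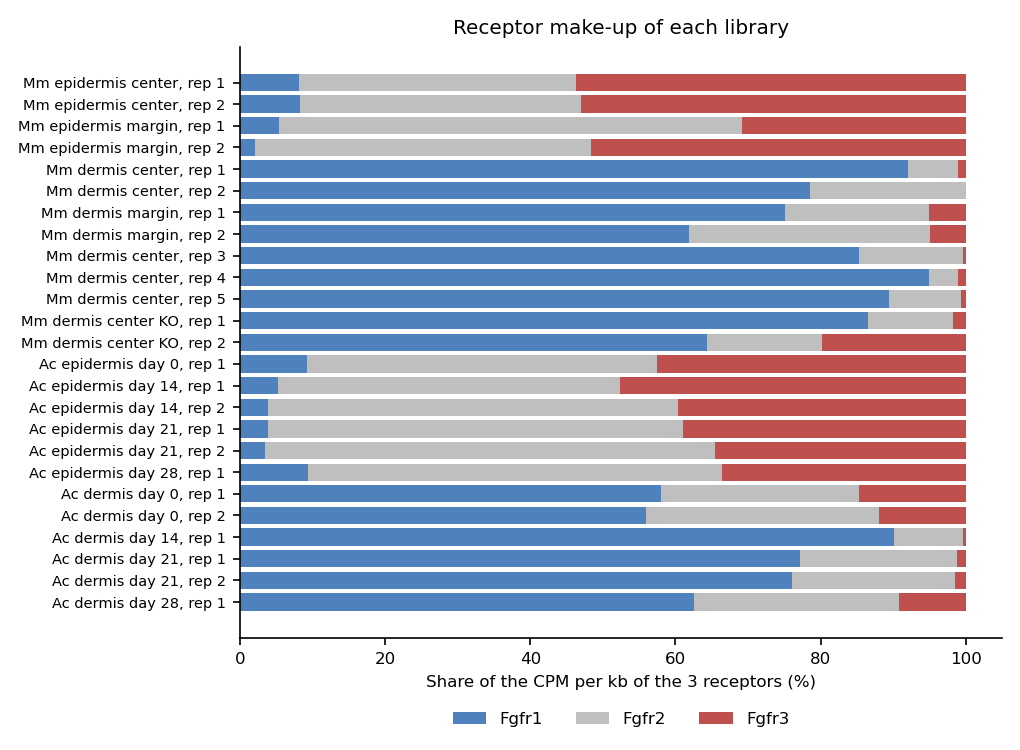
Share of each receptor in the summed CPM per kilobase of Fgfr1, Fgfr2 and Fgfr3, with 1 bar per library. Fgfr1 takes more than 50% of every dermis bar, at least 55.9%, and less than 10% of every epidermis bar, at most 9.41%.

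Of the 50 other genes of the pathway that were listed (further ligands and receptors, cofactors, signal relay, and feedback inhibitors and targets), 42 were tested between the spiny mouse layers at PWD21. There 8 were higher and 29 lower in epidermis, against 29.4% and 33.5% of all genes, with a median log2 fold change of -2.23 against -0.06 over all genes. Gpc3, a heparan sulfate proteoglycan of the cell surface, was lower in epidermis by -9.40 ± 0.39 (edgeR FDR 5e-06). Fgfbp1, a carrier that releases FGFs from the matrix, was higher by 4.95 ± 0.28 (FDR 9.63e-06), and the proteoglycan Sdc2 was lower by -3.94 ± 0.24 (FDR 1.21e-05). In the laboratory mouse center, 11 of 37 were higher and 13 lower (29.3% and 26.8% of all genes, median 0.05 as for all genes), led by Fgfbp1 (6.38 ± 0.25), Gpc3 (-5.76 ± 0.26) and the proteoglycan Hspg2 (-3.05 ± 0.15), and in the margin 7 of 36 were higher and 14 lower (20.9% and 26.8% of all genes, median -0.95 against -0.16), led by Gpc3 (-6.86 ± 0.41), the proteoglycan Sdc3 (-4.89 ± 0.40) and Hspg2 (-4.02 ± 0.40).

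The comparison of wound center and margin addressed the area where new follicles form against the area where they do not. In epidermis, 0 of the 5 members tested passed an FDR of 0.05, against 1.24% of all genes (0.882% higher and 0.360% lower in the center), and 1 had an unadjusted p under 0.05, against 23.5% of all genes. DESeq2 also called 0 members, and called 914 of 14165 genes higher in the center and 597 lower. The center libraries held 18.96 ± 1.92 CPM of Fgfr1 (mean ± SD, n = 2) and the margin 9.13 ± 5.84, and the values did not overlap (log2 fold change 1.01 ± 0.51, edgeR FDR 0.291). Fgfr2 was 91.75 ± 9.43 in the center and 142.5 ± 32.6 in the margin, also without overlap (-0.75 ± 0.27, FDR 0.176). Fgfr3 (0.17 ± 0.27, FDR 0.727) and Fgf22 (0.30 ± 0.78, FDR 0.838) overlapped, and Fgf18 was at 0.545 and 0.380 CPM in the center and 0.652 and 1.18 in the margin (-1.17 ± 0.68, FDR 0.347). The margin libraries decided these values. Without margin replicate 1, Fgfr1 reached 1.89 and Fgfr2 -0.41, while Fgf22 turned to -0.37 and Fgfr3 to -0.09. Without margin replicate 2, Fgfr1 was 0.37, Fgfr2 -1.003, Fgfr3 0.53 and Fgf22 3.295. In both fits the lone margin library is assumed to vary like the others.

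Fibroblast markers moved with the center in epidermis. Their sum was 7445 and 6120 CPM in the center and 2860 and 1104 in the margin, and 2 of 15 were higher in the center, 10 at an unadjusted p under 0.05, with a median log2 fold change of 1.95. None of the 15 was at 0 in both libraries of a group. Endothelial markers summed to between 24.1 and 33.9 CPM in the center and between 1.57 and 6.69 in the margin, with 0 of 6 past the threshold by edgeR, 5 at an unadjusted p under 0.05 and a median of 3.03. Hair shaft and root sheath markers summed to between 47.2 and 50.1 CPM in the center and between 15.2 and 62.5 in the margin, with 1 of 6 lower in the center, 5 at an unadjusted p under 0.05 and a median of -6.07. Fgfr1, which was higher in dermis than in epidermis, held more CPM in the same 2 center libraries, and the part of these cells in its level was not tested. Of the other pathway genes, 1 of 36 passed the threshold, Sdc3 at 18.8 CPM in the center and 2.83 in the margin (2.6 ± 0.32, edgeR FDR 0.0375).

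In dermis, center against margin again called 0 of 8 members, against 0.850% of all genes (0.116% higher and 0.735% lower). Of the same 8, 4 had an unadjusted p under 0.05, against 15.8% of all genes. DESeq2 called 1, Fgfr1, and called 183 of 14698 genes higher in the center and 555 lower. Fgfr1 was 314.7 ± 0.33 CPM in center replicates 1 and 2 and 222 ± 8.58 in the margin, without overlap (log2 fold change 0.59 ± 0.18, edgeR FDR 0.191, DESeq2 FDR 0.0144). Fgfr3 was at 2.54 and 0 CPM in the center and 11.4 and 12.75 in the margin (-3.06 ± 0.97, edgeR FDR 0.194). Fgf18 was at 0.952 and 0 against 3.88 and 3.74 (-2.81 ± 1.27, FDR 0.304), and Fgf7 at 0.181 and 2.27 against 8.44 and 12.1 (-3.04 ± 0.98, FDR 0.2). All 3 were below the margin in both center libraries, as was Fgf10. With all 5 center libraries, however, Fgf7 turned to 0.43 and Fgf18 was -0.92 (FDR 0.637), and replicates 3 to 5 reached 4.75 CPM of Fgf18 and 12.04 of Fgf10, above the margin. Fgfr2 overlapped (-0.62 ± 0.46, FDR 0.582) and was 0.02 without center replicate 1.

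Keratinocyte markers were lower in the center dermis too, at 688 and 469 CPM against 2435 and 4912 in the margin, with 7 of 14 past the threshold and 13 at an unadjusted p under 0.05. Dsg3 was at 0 in both center libraries. Hair shaft and root sheath markers summed to 4.31 CPM at most in these center libraries and to 696 and 717 in the margin, and 5 of the 6 tested were lower in the center. Fgfr3 was lower in the same libraries, and the part of these cells in its level was not tested. Of 37 other pathway genes, 0 passed the threshold and 8 had an unadjusted p under 0.05.

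The center-margin difference of Fgfr3 itself differed between the layers, by 3.38 ± 0.82 on the log2 scale (epidermis minus dermis, edgeR FDR 0.0487), against a median of 0.31 over all genes. This was 1 of 9 members tested, against 3.48% of all genes (3.34% higher and 0.135% lower). The difference passed the threshold in 2 of the 6 other settings that tested it, library size alone and no filter on low counts (edgeR FDR 0.0525 with RLE scaling, DESeq2 FDR 0.553), and in 2 of 8 fits with a library left out. It was lost without either center epidermis library, margin epidermis replicate 1, center dermis replicate 2 or either margin dermis library, with values from 2.32 to 3.505 and FDRs from 0.0896 to 0.213. Keratinocyte markers differed likewise, 7 of 14 past the threshold, and their part in the Fgfr3 value was not tested. Of 38 other pathway genes, 2 had a difference past the threshold, Sdc3 (2.05 ± 0.38) and Fgfbp1 (2.635 ± 0.55).

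The comparison of KO and WT center dermis addressed what the dermis shows when Twist1 is deleted in the epidermis. Twist1, the targeted gene, held 73.4 and 44.0 CPM in the KO and 57.7, 36.3 and 105 in WT replicates 3 to 5, which does not check the deletion since it was made in other cells. Of 7 members tested, 0 passed the threshold, against 0.0565% of all genes (0.0494% higher and 0.00706% lower in the KO). Of the same 7, 1 had an unadjusted p under 0.05, against 11.5% of all genes. DESeq2 called 1, Fgfr3, and called 399 of 14163 genes higher in the KO and 388 lower. Fgfr3 was at 5.835 and 34.0 CPM in the KO, above 1.33, 3.58 and 1.78 in WT (log2 fold change 3.21 ± 0.92, edgeR FDR 0.276, DESeq2 FDR 0.0195). Fgfr1 overlapped, at 391 and 150.2 against 442, 464.5 and 371 (-0.64 ± 0.39, FDR 0.527). Without KO replicate 1, Fgfr3 was 3.96 and Fgfr1 -1.55, in a fit where KO replicate 2 stands alone and is assumed to vary like the others. Fgfr2 (-0.02 ± 0.51, FDR 0.987), Fgf7 (-0.78 ± 1.05, FDR 0.771) and Fgf10 (-2.69 ± 1.74, FDR 0.539) overlapped as well. Fgf18 was at 0.0941 and 0 CPM in the KO and at 4.75, 0.958 and 1.29 in WT, without overlap (edgeR FDR 0.473). The signs of some members were not stable: Fgf7 was 0.99 without WT replicate 4, and Fgfr2 was 0.01 with DESeq2, 0.22 without KO replicate 2 and 0.55 without WT replicate 3.

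The 14 keratinocyte markers summed to 1075 and 36223 CPM in KO replicates 1 and 2, against 40.2, 48.9 and 90.7 in WT, with Dsg3 at 0 in both KO libraries. Of the 13 markers tested, 1 was higher in the KO and 12 had an unadjusted p under 0.05. Replicate 2, with the larger sum, was also the library with more Fgfr3 and less Fgfr1, and the part of these cells in the values was not tested. Of 37 other pathway genes, 0 passed the threshold and 5 had an unadjusted p under 0.05.

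**Figure D5:**
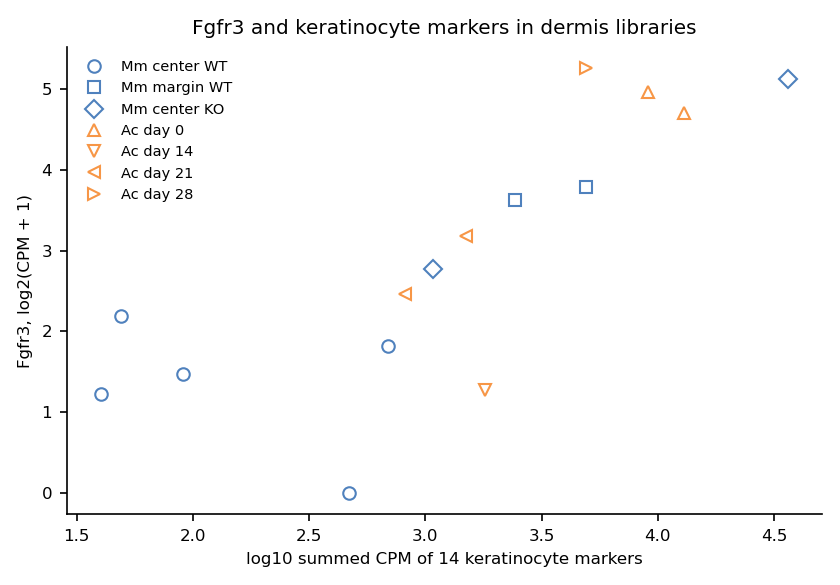
Fgfr3 as log2(CPM + 1) against the log10 of the summed CPM of 14 keratinocyte markers in the 15 dermis libraries, with laboratory mouse in blue and spiny mouse in orange. KO replicate 2, at 34.0 CPM of Fgfr3, and the spiny mouse libraries of day 0 and day 28 lie at the upper right, and WT center libraries at the lower left.

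In the spiny mouse, the comparison of days addressed how wounded skin differed from unwounded skin and changed as it healed. In dermis at PWD21 against PWD0, Fgf18 and Fgfr3 fell and Fgfr1 rose, which is 3 of 9 members tested against 26.2% of all genes (12% higher and 14.2% lower). At PWD14, with 1 dermis library that is assumed to vary like the others of a fit of all 12 libraries, the members past the threshold were again Fgf18, Fgfr3 and Fgfr1 (3 of 9, against 26.6% of all genes, 11.9% higher and 14.7% lower). Both comparisons share the PWD0 libraries and are not independent. TMM moved the median of all genes from -0.29 to -0.06 in the PWD14 comparison.

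Fgf18 was at 289 and 246 CPM in dermis at PWD0. The later levels were 7.89 (PWD14), 10.4 and 6.62 (PWD21) and 4.49 (PWD28). No wounded dermis library exceeded 10.4 CPM. Per kilobase of laboratory mouse exon, the mean level at PWD0 was 225 CPM. That was the highest of the 7 ligands in any spiny mouse group, ahead of 35.0 for Fgf22 in epidermis at PWD21. How evenly spiny mouse reads of these genes aligned to the laboratory mouse genome was not tested. The log2 fold change was -5.10 ± 0.38 at PWD21 (edgeR FDR 0.000223) and -4.86 ± 0.44 at PWD14 (FDR 6.11e-05). In epidermis it fell as well, from 31.7 CPM at PWD0 to 0.155 and 0.447 at PWD14 (-5.93 ± 0.46, FDR 7.55e-05, against the 1 PWD0 library), with 0.207 and 0.171 at PWD21 and 0.719 on PWD28. Fgfr1 was higher in wounded dermis, by 1.485 ± 0.32 at PWD21 (FDR 0.0116) and 1.57 ± 0.30 at PWD14 (FDR 0.00388). The PWD21 value was 1.21 without PWD21 replicate 2 (FDR 0.110). Fgfr3 was lower in wounded dermis, by -2.23 ± 0.40 at PWD21 (FDR 0.00576) and -4.05 ± 0.48 at PWD14 (FDR 0.000245).

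The mesenchymal ligands did not pass the threshold in dermis. Fgf7 overlapped at PWD21 (-0.60 ± 0.39, edgeR FDR 0.276) and was below both PWD0 libraries at PWD14 (-1.08 ± 0.52, FDR 0.147). Without PWD0 replicate 1, the lower one, it was -0.96 (FDR 0.0493) and -1.48 (FDR 0.0292). Fgf10 was above both PWD0 libraries at PWD21 (1.15 ± 0.55, FDR 0.152) and below them at PWD14 (-1.96 ± 0.83, FDR 0.0964). Fgf9 was at 0.502 and 0.144 CPM at PWD21 against 1.94 and 0.882 at PWD0 (-2.30 ± 0.96, FDR 0.108), and past the threshold with the likelihood ratio test (FDR 0.034) and without PWD0 replicate 2 (-2.92, FDR 0.0373). Fgfr2 was above PWD0 at PWD21 (0.62 ± 0.32, FDR 0.181) and 0.94 without PWD0 replicate 2 (FDR 0.0487). At PWD14 it was below PWD0 (-0.76 ± 0.35, FDR 0.132) and -1.04 without PWD0 replicate 1 (FDR 0.0476).

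Other cell types moved with these days. Keratinocyte markers summed to 12917 and 9034 CPM in dermis at PWD0, 1810 at PWD14, 820 and 1490 at PWD21 and 4918 on PWD28, and 12 of 14 were lower at PWD21 and 11 of 14 at PWD14. Adipocyte markers summed to between 202 and 234 CPM at PWD0 and between 10.7 and 29.9 afterwards, with 5 of 5 lower on both days and Adipoq, Lep and Cidec at 0 at PWD14. Fibroblast markers summed to between 77774 and 114084 CPM at PWD0, to 157669 at PWD14 and to between 152806 and 185195 at PWD21, with 8 of 15 higher on both days. Hair shaft and root sheath markers summed to 1535 and 4539 CPM at PWD0, 139 at PWD14 and 1638 and 2016 at PWD21. Schwann cell markers summed to 332 and 420 CPM, 25.3, and 229 and 247 on these days. At PWD21, 2 of 6 hair, 1 of 4 Schwann cell and 5 of 6 skeletal muscle markers were lower, and 0 were higher. At PWD14 these numbers were 2, 3 and 2, with 0 higher. Fgfr3 fell with the keratinocyte markers and Fgfr1 rose with the fibroblast markers. The part of cell content in these values and in the fall of Fgf18 was not tested.

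Among 41 other pathway genes tested in dermis at PWD21, 7 were higher and 6 lower than at PWD0, where 26.2% of all genes passed the threshold, with a median log2 fold change of 0.36 against 0.03 over all genes. Gpc3 rose from 38.6 to 2893 CPM (6.13 ± 0.49, edgeR FDR 0.000284), Fgfbp1 fell from 494 to 30.4 (-4.15 ± 0.37, FDR 0.000349) and Flrt2, a membrane protein that binds FGF receptors, rose from 24.4 to 149.6 (2.51 ± 0.28, FDR 0.000758). At PWD14, 8 of 43 were higher and 9 lower (11.9% and 14.7% of all genes, median -0.06 as for all genes), and the same 3 genes led, with Gpc3 at 4.885 ± 0.35, Fgfbp1 at -4.205 ± 0.42 and Flrt2 at 2.06 ± 0.28.

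In spiny mouse epidermis, all 3 receptors were lower at PWD14 than in the 1 library of PWD0, which has no replicate and is assumed in the fit of all 12 libraries to vary like the others. In that fit 4 of 9 members tested were lower at PWD14 and 0 higher, against 35.4% of all genes (16.2% higher and 19.2% lower). TMM moved the median of all genes from -0.835 to -0.13 in that comparison. Besides Fgf18, these were Fgfr1 (-2.89 ± 0.32, edgeR FDR 0.000291), Fgfr2 (-1.74 ± 0.32, FDR 0.00259) and Fgfr3 (-1.81 ± 0.33, FDR 0.00244). All 3 receptors were lower in both PWD14 libraries than in the PWD0 library. Fgf22 was at 33.95 and 42.4 CPM against 33.9 and did not pass the threshold (0.88 ± 0.37, FDR 0.0908).

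Against PWD21, 1 of 4 members tested was lower at PWD14, against 46.6% of all genes (23.4% higher and 23.2% lower). This was Fgfr2, at 47.0 and 59.3 CPM against 136 and 149 (-0.87 ± 0.17, edgeR FDR 0.00188). Fgfr1 (-0.40 ± 0.31, FDR 0.316) and Fgfr3 (-0.44 ± 0.19, FDR 0.0785) were also below PWD21 in both libraries. With library size alone, where the median of all genes was -0.59 in place of -0.04, they were -0.95 (FDR 0.0226) and -0.99 (FDR 0.0014). Fgfr3 also passed with at least 10 counts in every library (-0.50, FDR 0.0456) and without PWD14 replicate 1 (-0.58, FDR 0.0297). Fgf22 was below PWD21 in CPM but 0.15 ± 0.18 after TMM (FDR 0.532) and -0.40 with library size alone, so that its direction depended on the scaling.

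Other cell types differed between these epidermis libraries too. Fibroblast markers summed to 695.5 and 743.5 CPM at PWD14, against 1972 at PWD0 and between 1927 and 2031 at PWD21, while 5 of 15 were higher and 2 lower than at PWD0, and 2 of 14 higher and 2 lower than at PWD21. Keratinocyte markers summed to between 84590 and 89978 CPM at PWD14, against 55378 at PWD0 and between 81615 and 84832 at PWD21, with 2 of 14 higher and 5 lower than at PWD0. Macrophage markers summed to between 30.4 and 34.5 CPM, against 32.0 and between 47.0 and 54.8. Of these 7, 4 were higher and 0 lower than at PWD0, and 4 higher and 1 lower than at PWD21. Hair shaft and root sheath markers summed to between 1989 and 2117 CPM, against 1054 and between 2444 and 3277. Of the 6 tested, 1 was higher and 1 lower than at PWD0, and 1 higher and 5 lower than at PWD21. The part of these cells in the receptor levels was not tested.

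Among the other pathway genes in epidermis, 2 of 43 were higher and 13 lower at PWD14 than at PWD0, against 16.2% and 19.2% of all genes, with a median of -0.68 against -0.13. Gpc3 was at 54.1 CPM at PWD0 and 2.15 at PWD14 (-3.95 ± 0.37, edgeR FDR 0.000167), Fgfbp1 at 211 and 1346 (3.39 ± 0.40, FDR 0.00036) and Fgf13, an intracellular relative of the ligands, at 10.4 and 0.732 (-3.10 ± 0.45, FDR 0.000812). The levels of Gpc3 and Fgfbp1 thus moved in opposite directions in epidermis and dermis. The epidermis values rest on 1 PWD0 library, and the part of cell content in both layers was not tested. Against PWD21, 4 of 30 were higher at PWD14 and 3 lower (23.4% and 23.2% of all genes, median 0.07 against -0.04), led by Fgfbp1 (1.19 ± 0.17), the feedback inhibitor Spry2 (1.58 ± 0.23) and the receptor docking protein Frs2 (-1.245 ± 0.33).

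The genes whose levels followed a member most closely were taken for the 2 ligands and 2 receptors with the highest mean in a species, as the 3 smallest root mean square differences in centred log2(CPM + 1) over all its libraries. Over the 13 laboratory mouse libraries these were Kank2, Nrp2 and Loxl3 for Fgfr1 (0.291 to 0.324), Mfsd8, Hoxb9 and Thoc2 for Fgfr2 (0.424 to 0.449), Hid1, Fkbp1b and Fam167b for Fgf7 (0.806 to 0.865) and B3galt2, Mlf1 and Etv1 for Fgf10 (0.462 to 0.546). Over the 12 spiny mouse libraries they were Fermt2, P3h3 and Chst2 for Fgfr1 (0.315 to 0.441), Stk10, Nup98 and Trappc8 for Fgfr2 (0.215 to 0.233), Sox21, Proser2 and Smpd3 for Fgf22 (0.333 to 0.374) and S100a1, Timp3 and Pdlim3 for Fgf18 (0.800 to 1.17). These differences describe likeness across libraries that share layer and depth, and carry no test.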

How the data were processed

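Polyadenylated RNA of 25 skin wound libraries was sequenced. Per the labels and the study's methods, the authors aligned reads of both species to the laboratory mouse genome mm10 with STAR (2.4.1d in the submitters' processing notes) and counted them per gene with HTSeq 0.6.0, and the deposited values are these raw counts. The 5 summary rows were left out, and CPM were computed over 24500 gene rows. Laboratory mouse epidermis was paired-end and strand-specific, its dermis single-end and strand-specific, and spiny mouse libraries single-end without strand.

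Groups were taken from the labels. Of the 5 WT dermis center libraries, replicates 1 and 2 were compared with the margin and replicates 3 to 5 with the KO, after the division in the study's supplement. The main test was edgeR 4.0.16 (R 4.3.3, limma 3.58.1) with TMM scaling, filterByExpr and the quasi-likelihood test, adjusted by Benjamini-Hochberg over the genes tested, called at an FDR of 0.05. The SE was the log2 fold change divided by the square root of F. The 11 comparisons used the libraries of their own groups, except the comparisons of spiny mouse PWD14 with PWD0 (fit of all 12 libraries) and the difference of center-margin effects (8 libraries). Where a spiny mouse group had no more than 3 reads in each library, the fold was given as a bound against 3 reads. Scripts were tested on simulated data. Alternatives were RLE scaling, library size alone, no filter, at least 10 counts in every library, DESeq2 1.42.0, the edgeR 3 quasi-likelihood and likelihood ratio tests, all libraries of a species in one fit, all 5 center libraries, and each library left out.

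All 10 members were named. Of 50 other pathway genes, counts were given and up to 3 with the lowest p past the threshold were named. The members and gene lists were chosen with earlier results of these data known. No column of values lacked a sample.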

Additional observations from a re-analysis of the deposited data

Results flagged for a closer look

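In the 5 WT center dermis libraries of the laboratory mouse, 3 ligands had 1 library far from the others, at a gap over range above the critical value of 0.71. Fgf7 was at 50.04 CPM in replicate 4, Fgf9 at 3.19 CPM in replicate 2 and Fgf18 at 4.75 CPM in replicate 3. They were 3 of 8 members tested, and the test marks about 1 in 20 groups of 5 normally distributed values. No share over all genes is given, and these libraries were uneven. They also join the 2 sets that the comparisons kept apart, replicates 1 and 2 and replicates 3 to 5. The count is therefore not a result about the members.

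The center-margin difference of Fgfr3 differed between epidermis and dermis by 3.38 on the log2 scale (edgeR FDR 0.0487), with the limits given above.

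The PWD28 libraries of the spiny mouse, 1 per layer, entered no test. Over the members in both layers, 6 values lay above the highest PWD0 library with exact Poisson 95% intervals that did not meet. Fgf22 and Fgfr2 count in each layer, and no share over all genes is given. The intervals cover counting error only. Spiny mouse replicate pairs differed by 30.1 to 108 times counting error (chi-square per degree of freedom over genes), so these intervals do not show a difference between days. In epidermis these were Fgf22 at 47.3 CPM (43.1 to 51.8, against 33.9) and Fgfr2 at 363 CPM (351.5 to 375.5, against 292). In dermis they were Fgf10 at 8.88 CPM (7.15 to 10.9, against 2.47), Fgf22 at 18.0 (15.5 to 20.8, against 3.67), Fgfr1 at 345 (334 to 357, against 192.5) and Fgfr2 at 161 (153.5 to 169, against 114.5). Below PWD0 lay Fgf18, at 0.719 CPM in epidermis against 31.7 and at 4.49 in dermis against 246 and 289, and Fgfr3 in epidermis, at 152 against 182.5. Hair shaft and root sheath markers summed to 27395 CPM in PWD28 dermis and 20740 in PWD28 epidermis, against 1535 to 4539 and 1054 at PWD0, and their part in these values was not tested.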

How the results depend on the processing

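No paired analysis was possible because the labels give no replicate numbers shared between groups. For 56 of the 81 member log2 fold changes tested, those chosen for the text, 406 values kept direction and side of the threshold under another setting, 9 became called, 11 lost the call and 5 reversed, and with a library left out the numbers were 177, 15, 12 and 7. Over all 81, the sign changed under at least 1 other setting for 9 and with a library left out for 18, among them Fgf2 and Fgf9 in dermis center against margin and Fgf18 between the laboratory mouse center layers. The number of members called moved to 1 with DESeq2 in dermis center against margin and in KO against WT, from 0. There DESeq2 also called more of all genes, as given above. In spiny mouse epidermis at PWD14 against PWD21 the number of members called moved from 1 to 3 with library size alone. It moved to 2 with at least 10 counts, a filter that tests fewer genes. Between the spiny mouse layers it moved from 7 of 8 tested to 3 of 4 tested with at least 10 counts. In the laboratory mouse center it moved from 3 of 5 tested to 1 of 2 with at least 10 counts and to 6 of 9 with all 5 center libraries. In the margin it moved from 6 of 8 tested to 3 of 9 in the fit of all laboratory mouse libraries. For the difference of center-margin effects it was 0 with RLE, at least 10 counts, DESeq2 and the edgeR 3 test, from 1. With at least 10 counts only 2 members were tested there, and Fgfr3 was not among them. Beyond the number of members tested, the cause was not tested.

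Except for the WT libraries in KO against WT, leaving a library out kept a lone library in a group, assumed to vary like the others. Numbers of members called are therefore not compared for those fits. In KO against WT, 0 members were called without WT replicate 3, 4 or 5. Over all genes, at most 1 was called in each direction there. Among the 56, directions reversed for Fgf7 in dermis center against margin with all 5 center libraries (0.43), Fgfr2 in the KO with DESeq2 (0.0073), Fgf22 in epidermis PWD14 against PWD21 with library size alone (-0.40) and Fgfr2 between spiny mouse layers with library size alone (-0.030) and at least 10 counts (-0.047). With libraries left out, center against margin ran from -0.090 to 0.53 for Fgfr3 and from -0.37 to 3.295 for Fgf22 in epidermis and from -1.75 to 0.024 for Fgfr2 in dermis. KO against WT ran from -0.37 to 0.55 for Fgfr2 and from -1.33 to 0.99 for Fgf7, and the spiny mouse layers from -0.22 to 0.41 for Fgfr2. Fgf2, Fgf9 and Fgf20 had 3 reads or fewer in part of the libraries, and no statement on them was possible there.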
